A study of Homo sapiens with 12 samples.

Results

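The genes described here are TARDBP, which encodes TDP-43, and 8 other genes of RNA-binding proteins linked to amyotrophic lateral sclerosis (ALS) or closely related to one that is. They were taken by symbol, and the other 8 are EWSR1, TAF15, MATR3, HNRNPA1, HNRNPA2B1, TIA1, TIAL1 and ATXN2. The 5 deposited tables used named 4693 genes in all, and 3 of the 9 were among them. The libraries came from neurons made from WA01, one established human embryonic stem cell line, by induced overexpression of the transcription factor NGN2. One group received a short hairpin RNA (shRNA) against TDP-43 and the other a scrambled shRNA, and the sample titles give day 7 for both. The labels call the first genotype TDP-43 knockdown and the second WT. RNA-seq and 3' end-seq were each run on 3 knockdown and 3 scrambled replicates, 12 libraries together. The labels do not give the hairpin's sequence or say whether replicates were separate cultures. All cells derive from a single line and carry the NGN2 program in both groups.

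TDP-43 is a mostly nuclear protein that binds UG-rich RNA, holds back the use of unannotated exons and polyadenylation sites, and limits the amount of its own messenger RNA by binding in that message's 3'UTR. In most people with ALS it leaves the nucleus of affected neurons and gathers in the cytoplasm. EWSR1 and TAF15 belong to the FET family, DNA- and RNA-binding proteins that act in transcription and splicing. MATR3 (matrin 3) is a nuclear matrix protein that binds RNA. HNRNPA1 and HNRNPA2B1 package new transcripts and regulate splicing. TIA1 and TIAL1 (also called TIAR) are paralogs that bind U-rich RNA, regulate splicing and help to form stress granules. ATXN2 is a cytoplasmic protein of RNA metabolism, and lengthened glutamine tracts in it raise the risk of ALS.

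The tables list only items that the authors called changed, with no value per library, so neither depth nor the spread between replicates can be given and every adjusted p below is the authors'. How many genes the authors could test is unknown. As a yardstick, 22.1% of the 20056 protein-coding genes in RefSeq had an entry in at least 1 of the 5 tables, a base that includes genes these neurons may not express. The gene table's 6 value columns could not be tied to samples by their names. For that reason the level of TARDBP RNA, the strength of the knockdown, the levels of the other 8 genes and the neuronal markers were not analysed here.

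**Figure D1:**
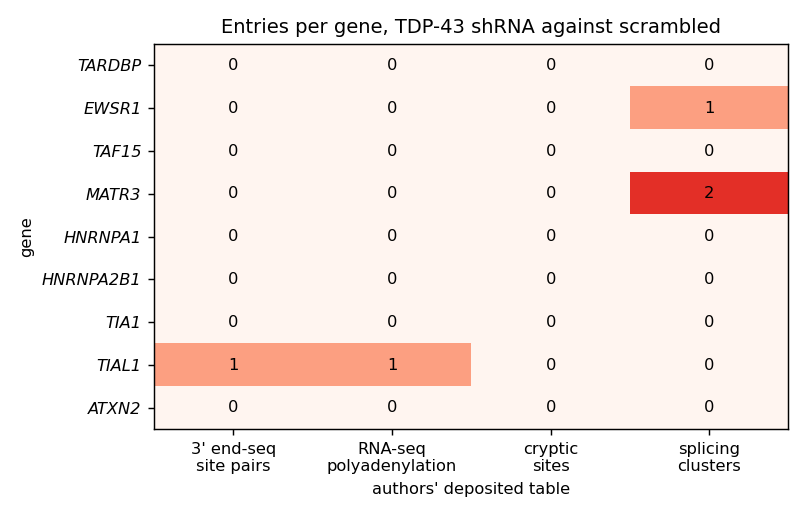
Number of entries for each of the 9 genes (rows) in the authors' deposited tables of TDP-43 shRNA against scrambled shRNA (columns). TIAL1 has 1 entry in each polyadenylation table, MATR3 has 2 splicing clusters, EWSR1 has 1, and the other 6 genes have 0 throughout.

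TARDBP itself had 0 entries in the polyadenylation, cryptic site and splicing tables. HNRNPA1, HNRNPA2B1, TAF15, TIA1 and ATXN2 also had 0 entries, under their current symbols and under their RefSeq synonyms. No listed cluster, site pair or cryptic site of any gene name lay within 5000 nt of the RefSeq bounds of these 6 genes. TARDBP spans 17875 nt on chromosome 1 (11012654 to 11030528, GRCh38.p14), and ATXN2, the longest of the 6, spans 147460 nt on chromosome 12. An absence from these tables means that no change passed the authors' thresholds, or that the gene was not tested, and does not show that its processing was the same in both groups. HNRNPA1 has processed pseudogenes, and how reads shared with them were counted is not given in the sources used here.

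TIAL1 was the one gene of the 9 with a polyadenylation change, and both assays listed it. In 3' end-seq, which reads the last bases of transcripts, TIAL1 was called longer, and its usage index differed by 0.281 (adjusted p = 6.16e-279) in the authors' deposited table. From RNA-seq TIAL1 was called distal with a change of 0.397 (adjusted p = 0.00853) in the authors' deposited table. The site positions given below are from 3' end-seq only. Whether the RNA-seq call rests on the same sites was not examined. The usage index is the authors' measure of how a gene's transcripts divide between polyadenylation sites; its scale is not stated and differs between the assays, so the sizes are not set against each other. Among protein-coding genes, 9.53% were listed in the 3' end-seq table and 4.18% in the RNA-seq table, beside 1 of the 9 in each. A list of 9 genes is too short to tell 1 listed gene apart from either share, and no difference was tested.

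Within each table TIAL1 took a different place. By size of change it stood 592nd of 2220 genes in 3' end-seq, where 73.3% had a smaller change, while in RNA-seq it stood 698th of 841, where 17.0% had a smaller one. The median change of the genes called longer in 3' end-seq was 0.214, and that of the genes called distal in RNA-seq was 0.765, computed from the authors' deposited tables. Most listed genes moved the same way as TIAL1, with 1881 called longer against 339 shorter and 799 called distal against 42 proximal. Its direction therefore matched the common one in both tables. Of the 234 genes in both tables, 219 were longer and distal.

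**Figure D2:**
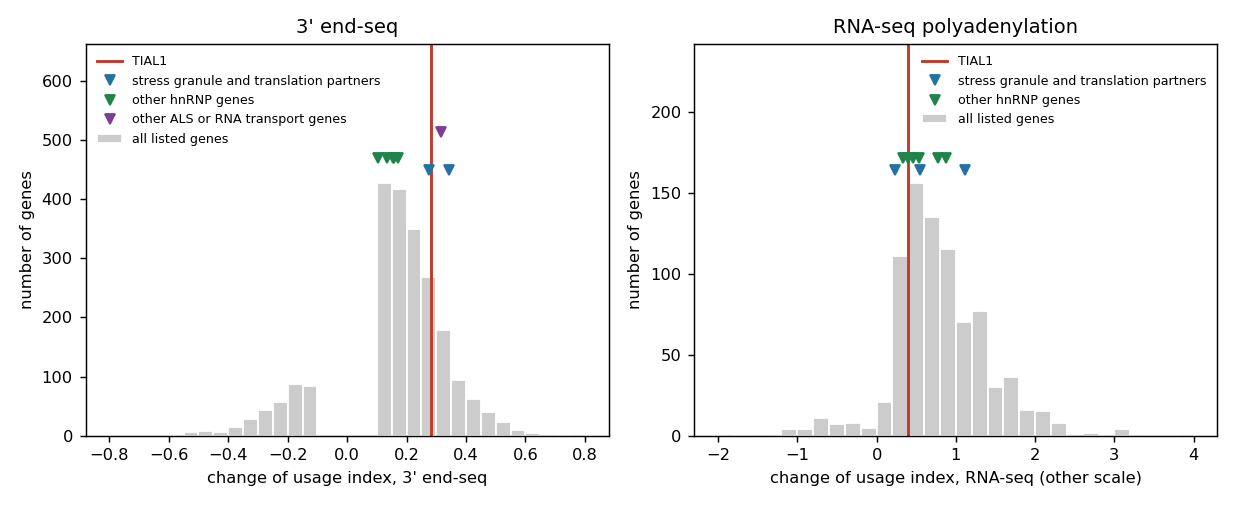
Histograms of the authors' change in usage index for all genes listed in 3' end-seq (left, 2220 genes) and RNA-seq (right, 841 genes), TDP-43 shRNA against scrambled, on scales that differ between the panels. The red line marks TIAL1 at 0.281 and 0.397, and triangles mark genes of the partner lists, all of which lie above 0.

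The 2 TIAL1 sites lay on either side of the annotated gene end. On the minus strand of chromosome 10 (hg38), use fell at position 119575413 and rose at position 119571805 in the authors' deposited table, 3608 nt farther downstream. The RefSeq gene ends at 119573465. The falling site was 1948 nt before that end and the rising site 1660 nt past it, with no other RefSeq gene overlapping the interval. Of the 1788 genes called longer that had a RefSeq gene, 64.0% had a rising site within 10 nt of the RefSeq end (a window chosen after the positions were seen). In 194 of the 1788 (10.9%), TIAL1 among them, the rising site lay past the RefSeq end by any distance. In 112 (6.26%), again with TIAL1, it lay more than 1000 nt past. Over all listed genes with a rising site past the end, the median was 1946 nt, against 1660 nt in TIAL1. The TIAL1 rising site was not in the authors' table of cryptic sites, which holds sites used at no more than 5.99% in scrambled neurons.

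**Figure D3:**
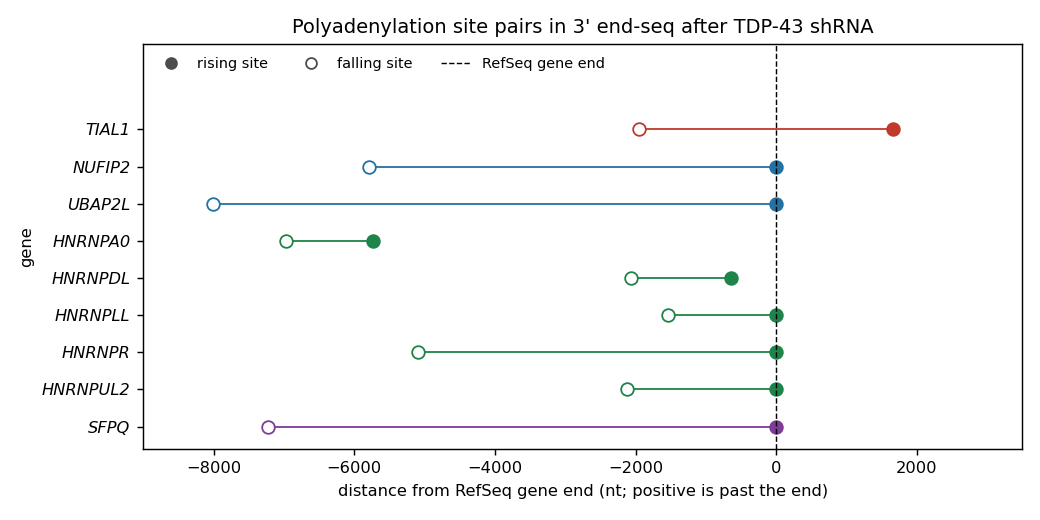
Falling (open) and rising (filled) polyadenylation sites of TIAL1 and the 8 partner genes listed in 3' end-seq, in nt from the RefSeq gene end (dashed line), with positive values past the end. The TIAL1 rising site lies 1660 nt past the end, and the rising sites of 6 partner genes lie within 10 nt of it.

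Splicing changes were listed for MATR3 and EWSR1 and were small. A cluster is a set of introns that share splice sites, and each intron's value is the change of its share of the cluster. Among protein-coding genes 11.7% had a listed cluster, beside 2 of the 9 here. The sign convention is not stated in the table. A positive value was taken to mean more use in knockdown neurons because an intron of STMN2 that ends at an unannotated 3' splice site, and is known to appear when TDP-43 is lost, had a change of 44.9 percentage points in the authors' deposited table. Over all 2994 clusters the median of the largest intron change was 6.4 points, against 1.3 and 1.5 points in the MATR3 clusters and 2.4 points in the EWSR1 cluster.

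MATR3 had a long cluster of 13 introns over 36947 nt, from position 139279129 to 139316076 of chromosome 5 (hg38), beginning 5028 nt after the RefSeq start (cluster adjusted p = 3.68e-06 in the authors' deposited table). The introns comprised 7 annotated ones, 4 with an unannotated 5' splice site and 2 that join annotated sites in a new pair. The largest gain, 1.3 points in the authors' deposited table, was that of the annotated intron from 139293805 to 139307239. The annotated intron from 139315738 to 139316076 changed by -1.0 points and the unannotated one from 139293772 to 139307239 by -0.6 points in the authors' deposited table. In the other 10 introns the change was at most 0.5 points either way. Of the 13 introns, 6 ended at the same 3' splice site at 139307239 and began at different 5' splice sites upstream, and their changes ran from -0.6 to 1.3 points with a sum of 0.9. The small p of this cluster therefore goes with small shifts, since only 5.74% of listed clusters had a smaller largest change. Its shares are divided among 13 introns, against a median of 4 introns over listed clusters. The ranking was not adjusted for the number of introns. Long noncoding RNA genes overlap the beginning of MATR3 in RefSeq, SNHG4 from 139274101 to 139284900 and LOC124901081 from 139273067 to 139293557. Both cover the start of the intron from 139279129 to 139307239, which changed by 0.3 points in the authors' deposited table. That intron cannot be assigned to MATR3 alone by position, and the strands of the overlapping genes were not compared.

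The second MATR3 cluster held 2 introns with the same 5' splice site at 139322967 and lay 6237 nt before the RefSeq end. Its unannotated 3' splice site at 139325296 gained 1.5 points and the annotated one at 139325440 changed by -1.5 points (cluster adjusted p = 0.0247 in the authors' deposited table). The unannotated site was 144 nt upstream of the annotated one, a distance divisible by 3. By largest change, 7.25% of listed clusters were smaller.

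EWSR1 had 1 cluster of 2 introns close to its end, from 29299280 to 29299599 of chromosome 22 (hg38), 922 nt before the RefSeq end. The intron that starts at an unannotated 5' splice site at 29299280 changed by -2.4 points, and the annotated one that starts at 29299331 by 2.4 points (cluster adjusted p = 0.0491 in the authors' deposited table). The sites were 51 nt apart, again divisible by 3, and the unannotated one was the upstream one. The direction was thus opposite to that of the short MATR3 cluster, where the unannotated intron was higher in the knockdown under the same reading. The EWSR1 p lay close to the limit of 0.05, as did those of 320 of 2994 clusters (10.7%) above 0.04.

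**Figure D4:**
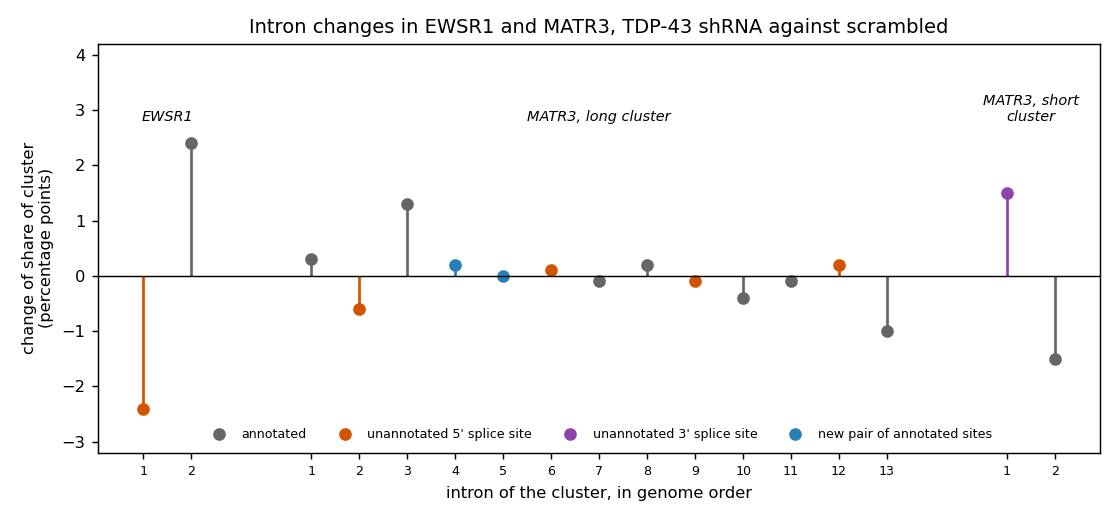
Change of each intron's share of its cluster, in percentage points, for the EWSR1 cluster (2 introns) and both MATR3 clusters (13 and 2 introns), in genome order and coloured by the authors' class of splice site. The values run from -2.4 to 2.4 points, both in EWSR1, and 10 of the 13 introns in the long MATR3 cluster lie within 0.5 points of 0.

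The other genes of the hnRNP family, to which HNRNPA1 and HNRNPA2B1 belong, included several with polyadenylation entries. Of 22 such genes, 5 were listed in 3' end-seq, all longer, beside 9.53% of protein-coding genes. In RNA-seq polyadenylation 6 of the 22 were listed, all distal, beside 4.18% of protein-coding genes. Both shares count listing in either direction. Of all listed genes, 1881 of 2220 were longer and 799 of 841 distal, so a shared direction is the common one. Whether the list differs from other expressed genes was not tested. HNRNPA0, a single-exon relative of HNRNPA1, was longer by 0.154 (an adjusted p deposited as 0) and distal by 0.331 (adjusted p = 8.49e-06) in the authors' deposited tables. HNRNPR, which also acts in axonal RNA transport, was longer by 0.158 and distal by 0.774 in the authors' deposited tables. HNRNPUL2 at 0.169, HNRNPLL at 0.135 and HNRNPDL at 0.105 were the other longer genes in the authors' deposited table. HNRNPF at 0.873, HNRNPD at 0.539, HNRNPDL at 0.453 and HNRNPLL at 0.401 were distal in the authors' deposited table. The median change of the 5 longer genes was 0.154, and it was 0.212 in size over all genes of that table. In RNA-seq the 6 had a median of 0.496, and all listed genes one of 0.758.

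Cryptic sites, as the authors name them, were listed for 0 of the 9 genes and for 1.95% of protein-coding genes. Both cryptic sites in the partner lists were in hnRNP genes and in 3'UTRs. Usage of the HNRNPR site at position 23304691 of chromosome 1 was 19.6% in knockdown and 4.38% in scrambled neurons in the authors' deposited table, with 1 value per group. The HNRNPA0 site at position 137751385 of chromosome 5 was used at 19.6% in knockdown and 4.93% in scrambled neurons in the authors' deposited table. Relative to the RefSeq gene end, the HNRNPR site lay at -3 nt and the HNRNPA0 site at -5734 nt, where negative values are before the end. The HNRNPR site was thus within 10 nt of an annotated gene end. Each was also the rising site of its gene's pair in 3' end-seq, so these entries are not separate measurements. Their knockdown usage was close to the median of 19.1% over all 457 distinct sites.

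In splicing, 7 of the 22 hnRNP genes had clusters, beside 11.7% of protein-coding genes, and these numbered 10, with a largest change from 1.4 to 5.9 points. HNRNPH3 had the largest, where an intron joining annotated sites in a new pair changed by -5.9 points and an annotated one by 5.4 points (cluster adjusted p = 0.0176 in the authors' deposited table). HNRNPK had a pair of annotated introns with the same 5' splice site, with -4.9 points for one and 4.9 for the other, per the authors' deposited table. RALY had the smallest cluster adjusted p, 1.3e-08, with a largest change of 2.1 points in the authors' deposited table. The median over the 10 clusters was 2.7 points, so as in MATR3 and EWSR1 the listed shifts lay below the table's median of 6.4.

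Stress granule and translation genes, which work with TIA1, TIAL1 and ATXN2, had entries in both polyadenylation tables and in the splicing table. Of 20 such genes, 2 were longer in 3' end-seq, which is at the background of 9.53% of protein-coding genes. In RNA-seq 3 of the 20 were distal, beside 4.18% of protein-coding genes, and 11 had a splicing cluster, beside 11.7%. The base of these shares holds genes that neurons may not express, and no difference from it was tested. For polyadenylation the shares count either direction, and most listed genes were longer or distal. NUFIP2, a partner of the fragile X protein, was longer by 0.343 and distal by 0.230 in the authors' deposited tables. UBAP2L, which helps to nucleate stress granules, was longer by 0.275 in the authors' deposited table. PABPC1, the main cytoplasmic poly(A)-binding protein, was distal by 1.12 and CELF1, a splicing and decay regulator, by 0.551 in the authors' deposited table. PABPC1 has close paralogs and pseudogenes, so its value depends on how shared reads were counted. Like TIAL1, NUFIP2 and 4 hnRNP genes (HNRNPA0, HNRNPDL, HNRNPLL and HNRNPR) were in both polyadenylation tables, 5 partner genes in all. Over all genes, 234 were in both tables and 219 were longer and distal, so neither trait is particular to these genes.

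Larger splicing shifts than those of MATR3 and EWSR1 were found in CELF1 and FMR1. In CELF1, the annotated intron from 47472102 to 47472191 of chromosome 11 changed by -14.9 points and the annotated one from 47468891 to 47472191 by 14.0 points (cluster adjusted p = 0.00481 in the authors' deposited table). FMR1, which encodes the fragile X protein, gained 12.0 points at an annotated intron and changed by -8.9 points at one with an unannotated 5' splice site (cluster adjusted p = 0.0368 in the authors' deposited table). DDX6, a helicase of P-bodies, had a largest change of 7.2 points and G3BP2, a core stress granule protein, one of 5.0 points in the authors' deposited table. Its paralog G3BP1 had a largest change of 1.0 points in the authors' deposited table. Over the 14 clusters of this list the median was 4.4 points, with a range from 0.6 to 14.9, and not every cluster is named here.

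**Figure D5:**
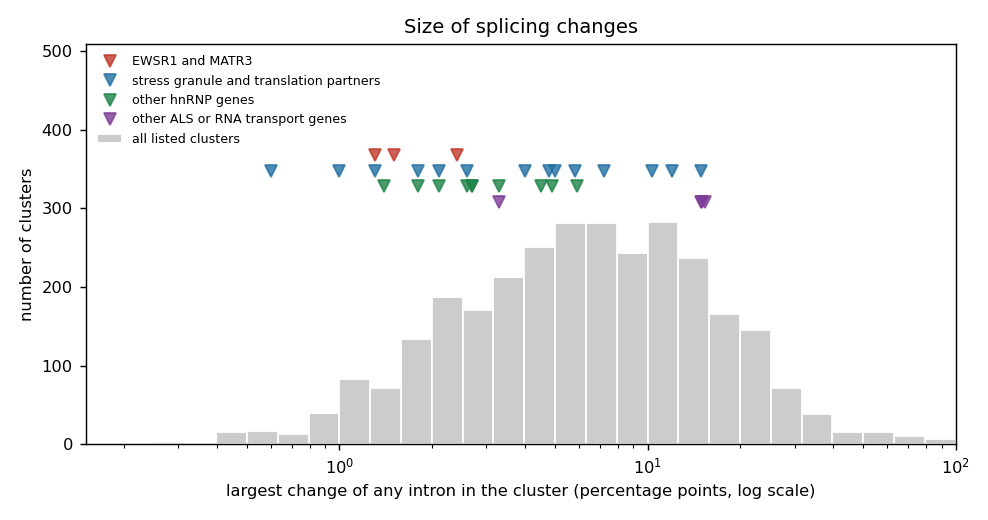
Histogram of the largest intron change in each of the 2994 listed splicing clusters (percentage points, log scale), with triangles for the clusters of EWSR1, MATR3 and the partner lists. The 3 clusters of EWSR1 and MATR3 lie at 1.3, 1.5 and 2.4 points, left of the median of 6.4.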

How the data were processed

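RNA was taken up in trizol and DNase-treated, per the labels' protocols, and libraries were made with a SMARTer stranded total RNA kit (RNA-seq) or Quantseq REV (3' end-seq). Tools named in the submitters' processing notes are DESeq2, fastp, Salmon, SAMtools and STAR, with the build hg38. The deposited splicing results carry the name leafcutter. The sources used here do not name the callers of the polyadenylation changes or the cryptic sites. The usage index and intron share changes are scores that the authors deposited, the latter rounded by them. Adjusted p-values are the authors', deposited per gene or per cluster. For each cryptic site the authors deposited 1 usage fraction per group (given here as a percent), with an unstated denominator. Scores and p-values cover listed items only, up to an adjusted p of 0.05. The smallest listed change in size was 0.100 in 3' end-seq and 0.108 in RNA-seq polyadenylation. Ranks and medians of change therefore hold no smaller ones. The 6 columns of per-sample values in a gene table were not used, so the expression tests that had been planned were not run. The design planned no test on the comparison tables, and none was made.

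Computed here were symbol matches, ranks, medians, shares, and strand-aware distances to RefSeq gene ends (GRCh38.p14, used for names and bounds in the hg38 files). All 9 genes and all 58 partner genes matched a RefSeq symbol. A cryptic site listed on more than 1 line was counted once, leaving 457 of 459 lines. The distance and symbol functions were tested on simulated data. Rising sites in 3' end-seq are those higher in the knockdown, since 199 cryptic sites were rising sites and 0 were falling ones. Quantseq REV primes on poly(A), so internal A-rich stretches can look like sites, which was not tested. The depth is unknown. Named were all 9 genes and, from 3 partner lists, a selection of the genes listed in the tables. The plan had been to name every listed partner gene. The 9 genes and the lists were chosen with earlier results of these data known. Alternatives were stricter p, change and usage limits and the matching of synonyms. Python 3.11.15, numpy 2.4.6, pandas 2.3.3 and matplotlib 3.10.9 were used.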

Additional observations from a re-analysis of the deposited data

How the results depend on the processing

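Matching synonyms changed no count of genes in the splicing or cryptic tables, and an adjusted p limit of 0.01 left TIAL1 in both polyadenylation tables, with 8 partner genes in 3' end-seq and 7 of 9 in RNA-seq. For splicing, the limit of 0.01 left 1 of the 2 listed genes (MATR3, through its long cluster) and 12 of 22 partner genes, since fewer clusters pass. A minimum change of 10 percentage points left 0 of the 2 genes and 5 of the 22. A minimum knockdown usage of 20% left 0 of the 2 partner genes with cryptic sites, both at 19.6%. No paired analysis was possible because the comparison tables hold no value per library, and for the same reason leaving out replicates, other pseudocounts, filters, scalings and count tests were not run. Depth is unknown, so absence from a table cannot be told apart from too few reads.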

Other observations

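Among 16 other ALS or RNA transport genes, 4 had entries in the tables, near the background of 22.1% of protein-coding genes. All 4 had a splicing cluster, beside 11.7% of protein-coding genes, and no difference from either share was tested. Of these 4, 3 had splicing shifts above 10 percentage points, a size reached by 33.0% of all 2994 listed clusters. SQSTM1, which encodes the autophagy receptor p62, changed by -14.9 points at the annotated intron from 179821141 to 179822958 of chromosome 5 and by 11.3 points at the annotated one from 179807123 to 179811574 (cluster adjusted p = 0.00384 in the authors' deposited table). GLE1, an mRNA export factor, changed by -15.0 points at the annotated intron from 128504904 to 128508876 of chromosome 9. An unannotated 5' splice site and an unannotated 3' splice site within the same GLE1 interval gained 7.8 and 7.1 points (cluster adjusted p = 0.0383 in the authors' deposited table). SFPQ, a paraspeckle protein gene, changed by -15.4 points at the annotated intron from 35184593 to 35187001 of chromosome 1. An SFPQ intron with an unannotated 3' splice site gained 14.4 points (cluster adjusted p = 2.5e-06 in the authors' deposited table). SFPQ was also longer by 0.314 in 3' end-seq in the authors' deposited table. TNPO1 encodes an import receptor that carries several RNA-binding proteins, HNRNPA1 among them, into the nucleus. Its cluster had a largest change of 3.3 points (cluster adjusted p = 0.00767 in the authors' deposited table).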
